A study of Mus musculus with 7 samples.

Results

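The HoxB cluster is 1 of the 4 clusters of Hox homeobox genes in the mouse genome. Its members here were the islands of histone H3 lysine 27 trimethylation (H3K27me3) that overlapped a fixed window on chromosome 11, from 95950000 to 96255000 in the genome build mm9, which holds the 10 genes Hoxb1 to Hoxb9 and Hoxb13. Of 122262 islands in 7 lists, 7 islands in 4 lists met this rule, and 3 lists had none. The window was chosen by the island calls and score ranks of these lists, in which islands were missing from some, so presence, edges and scores inside it are given as a description with no test. An island is a stretch that SICER, a caller built for broad marks, joins from neighbouring 400 bp windows with more reads than a random background. Its score is the authors' own value, which grows with width and with the depth of the library, and was read only within a list.

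The lists came from livers of wild-type male CD-1 mice, an outbred stock, aged 7 weeks. The 4 TCPOBOP mice received 3 mg/kg of TCPOBOP, a ligand of the mouse constitutive androstane receptor (CAR), which switches on drug-metabolising genes in hepatocytes, and the 3 vehicle mice received 1% DMSO in corn oil. Livers were taken 27 h later, each list is 1 whole liver with all its cell types, and the labels give no batch that differs between the groups. The files gave no read numbers, so the depth behind an island is unknown. The lists held between 16481 and 20550 islands with TCPOBOP and between 14167 and 17852 with vehicle.

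Hox genes encode transcription factors that give cells their position along the body axis, and their order on the chromosome follows the order of their expression from head to tail. In adult tissues that do not use them, Polycomb repressive complex 2 marks whole Hox clusters with H3K27me3, which Polycomb repressive complex 1 binds to keep the genes silent. In mammals complex 2 is drawn to promoters rich in unmethylated CpG dinucleotides.

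In RefSeq (GRCm38.p6) the cluster begins with Hoxb13, a posterior gene best known in prostate and tail. Sorted by the lowest coordinate of each annotated gene, Hoxb9, Hoxb8, Hoxb7, Hoxb6, Hoxb5, Hoxb3, Hoxb4 and Hoxb2 follow. The last is Hoxb1, which sets the identity of a segment of the hindbrain. Annotated genes can overlap, so this sorting need not be the order of their promoters, least of all for Hoxb3 and Hoxb4. All 10 members were found in RefSeq, among 19 genes from the first to the last. Hoxb4 is known from the growth of blood stem cells. The next protein-coding genes are Ttll6, a tubulin-modifying enzyme, then Calcoco2 and Atp5g1 beyond Hoxb13, and Skap1, a T cell adaptor, then Snx11 and Cbx1 beyond Hoxb1. Because that annotation is in another build than the islands, no island edge was assigned to a single gene.

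Of the 10 members, 3 had a promoter sequence in the RefSeq table. The 250 bases before their starts are shown as the promoters of the cluster that could be read. CpG dinucleotides, the letters CG, which read the same on both strands, are in capitals:
Hoxb1 (GRCm38.p6, chr11:96365508-96365757, plus strand): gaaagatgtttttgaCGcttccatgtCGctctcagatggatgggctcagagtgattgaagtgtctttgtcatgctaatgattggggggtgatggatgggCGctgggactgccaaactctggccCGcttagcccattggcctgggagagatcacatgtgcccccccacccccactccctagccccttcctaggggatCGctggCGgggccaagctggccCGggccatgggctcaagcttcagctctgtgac
Hoxb4 (GRCm38.p6, chr11:96318017-96318266, plus strand): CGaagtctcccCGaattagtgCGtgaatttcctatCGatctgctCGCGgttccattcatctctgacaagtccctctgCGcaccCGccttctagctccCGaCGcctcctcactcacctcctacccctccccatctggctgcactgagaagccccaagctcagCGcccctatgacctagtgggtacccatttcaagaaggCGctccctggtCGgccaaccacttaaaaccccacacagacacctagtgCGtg
Hoxb8 (GRCm38.p6, chr11:96281655-96281904, plus strand): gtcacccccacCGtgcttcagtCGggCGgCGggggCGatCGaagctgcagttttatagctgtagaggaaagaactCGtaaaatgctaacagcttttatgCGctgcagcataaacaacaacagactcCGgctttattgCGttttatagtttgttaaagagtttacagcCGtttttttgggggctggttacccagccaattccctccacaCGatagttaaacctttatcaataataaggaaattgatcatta
Hoxb4 had 14 CpG dinucleotides, Hoxb8 had 12 and Hoxb1 had 7. Of all 32851 promoters in the table, 29.4% held at least as many as Hoxb4, 33.5% at least as many as Hoxb8 and 46.3% at least as many as Hoxb1, and the median was 6. In these 250 bases the 3 held more than the median but were not among the most CpG-rich of all promoters. Bases past the start were not counted, and the other members had no sequence. The CpG content of the cluster's promoters as a whole was therefore not measured. The 19 Hoxa, Hoxc and Hoxd genes in the table had a median of 12. The cluster also holds 2 microRNA genes, Mir196a-1 and Mir10a. They are shown because they lie inside the cluster. The seed, bases 2 to 8, is in capitals:
mmu-miR-196a-5p (GRCm38.p6, chr11:96265187-96265208, plus strand): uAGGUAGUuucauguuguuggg
mmu-miR-10a-5p (GRCm38.p6, chr11:96317186-96317208, plus strand): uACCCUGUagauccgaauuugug
Their seeds differ. miR-196a is known in mouse to cleave the Hoxb8 transcript.

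Where an island was present, H3K27me3 lay over nearly the whole HoxB window and was among the strongest domains of the liver. TCPOBOP replicates 1 and 2 each had a single island, from 95980801 to 96248400, which was 267.6 kb wide. Vehicle replicate 2 had 3 islands, from 95952401 to 95969200, from 95972801 to 96084800 and from 96088001 to 96246800. Vehicle replicate 3 had 2, from 95963201 to 96002000 and from 96006001 to 96253200. The islands covered 87.7% of the window in both TCPOBOP livers, against 94.3% in vehicle replicate 2 and 93.8% in vehicle replicate 3. In the 2 vehicle livers with an island, the first piece began further to the left than the TCPOBOP islands. By score that piece ranked 13032 of 16301 in vehicle replicate 2, whose next piece, from 95972801, also began further left. The long piece of vehicle replicate 3, from 96006001, began further right. With 2 lists on each side, nothing about treatment is read from this.

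TCPOBOP replicates 3 and 4 and vehicle replicate 1 had no island anywhere in the window in the lists used here, a cover of 0%. Whether an island was called in these livers and is missing from the lists cannot be told from them. Each group thus held lists of both kinds: 2 of 4 with TCPOBOP and 2 of 3 with vehicle had an island. Absence means that no island was listed; the lists hold no value below the caller's threshold, so less of the mark cannot be told apart from a strong domain that was not listed.

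**Figure D1:**
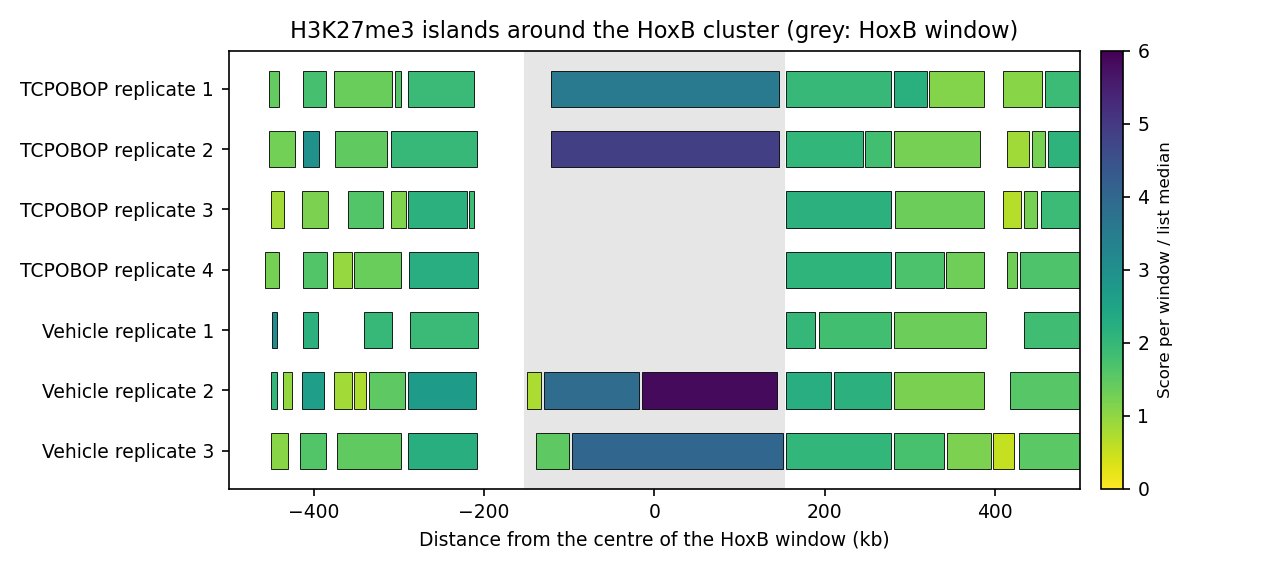
Islands within 500 kb of the centre of the HoxB window, 1 row for each liver, with TCPOBOP livers above vehicle livers; each bar is an island, placed by its distance from the centre in kb and coloured by its score per 400 bp window divided by the median of its list. The grey window is filled by dark bars in 4 rows and empty in TCPOBOP replicates 3 and 4 and vehicle replicate 1, while islands on both sides are present in every row.

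The 4 lists with an island placed it in nearly the same stretch. Over the 300.8 kb under any of these islands, 258.8 kb (86.0%) was under islands of all 4, and 19.2 kb (6.38%) was under islands of 1. The pairwise Jaccard index, the length shared by 2 lists divided by the length in either, had a median of 0.908 over the 6 pairs of these lists and ran from 0.899 to 1. In the same 4 lists it had a median of 0.948 over HoxA, 0.965 over HoxC and 0.929 over HoxD.

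The 2 edges of the island were identical in TCPOBOP replicates 1 and 2. Of 494 islands of TCPOBOP replicate 1 that were 100 kb wide or more, this was the only one with both edges the same in TCPOBOP replicate 2 (0.202%). Over all 21 pairs of lists that share ran from 0% to 1.33%, so equal edges were rare for wide islands in every pair. Vehicle replicate 2 ended 1.6 kb before that right-hand edge and vehicle replicate 3 ended 4.8 kb after it. The left-hand side varied more, from 95952401 in vehicle replicate 2 and 95963201 in vehicle replicate 3 to 95980801 in both TCPOBOP livers.

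The domain was split at different places. Vehicle replicate 2 had breaks of 3.6 kb and 3.2 kb, and vehicle replicate 3 had a break of 4 kb at another position. All were longer than the gap of 2400 bp that the caller bridges. Density was uneven between the pieces. In vehicle replicate 2 the score per window was 17.6 in the piece from 96088001, 11.8 in the middle piece and 2.31 in the small left piece, against a median of 3.02 over all islands of that list. In vehicle replicate 3 it was 11.1 in the long piece and 4.10 in the left piece, against a median of 2.75. In both vehicle livers the piece on the right was the densest.

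By score, the highest HoxB island ranked 5 of 20550 in TCPOBOP replicate 1 and 2 of 16481 in TCPOBOP replicate 2, against 10 of 16301 in vehicle replicate 2 and 5 of 17852 in vehicle replicate 3. Their scores were 6294 and 9981 with TCPOBOP, against 7003 and 6859 with vehicle, values that depend on depth and were not compared between lists. In all 4 lists this island thus stood among the 10 highest scores. Its score per window was 3.55 and 4.89 times the median of the list in TCPOBOP replicates 1 and 2, against 5.84 and 4.04 times in vehicle replicates 2 and 3. Ranked by score per window it stood at 101 and 85 in the TCPOBOP lists, against 54 and 60 in the vehicle lists, within the first 0.516% of each list. These values set a part against the whole. The vehicle islands were pieces of 158.8 and 247.2 kb, the TCPOBOP islands the whole 267.6 kb. The other pieces stood lower, at 3.89 and 0.765 times the median in vehicle replicate 2 and 1.49 times in vehicle replicate 3. The density of the whole domain was therefore not compared between the groups. The islands of the window held 0.136% and 0.184% of the summed score of their lists with TCPOBOP, against 0.187% and 0.153% with vehicle.

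In the lists that had it, HoxB ranked beside the other Hox clusters. These also pattern the body axis, HoxA and HoxD the limbs as well, and each lay under islands in all 7 lists. The highest-scored island ranked between 2 and 6 for HoxA, between 1 and 5 for HoxC and between 7 and 12 for HoxD, against 2 to 10 for HoxB where present. Within a list, the score per window of the highest-scored HoxB island was 1.04 and 1.16 times that of the highest-scored HoxA island in TCPOBOP replicates 1 and 2, against 1.03 and 1.08 times in vehicle replicates 2 and 3. Relative to HoxC it was between 0.911 and 1.30 times, and relative to HoxD between 0.907 and 1.17 times. Some of these islands were pieces of a cluster. The 1.30, in vehicle replicate 2, set a 158.8 kb HoxB piece against a 345.6 kb HoxC island. The 0.911, in TCPOBOP replicate 2, set a 267.6 kb HoxB island against a 208.8 kb HoxC piece.

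The lists with no HoxB island had the other 3 clusters among their highest scores. In TCPOBOP replicate 3 HoxA ranked 3, HoxC 2 and HoxD 9. In TCPOBOP replicate 4 HoxA ranked 2, HoxC 3 and HoxD 7, and in vehicle replicate 1 HoxA ranked 6, HoxC 1 and HoxD 12. The weakest of these 9 ranks was 12 of 14167 islands.

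**Figure D2:**
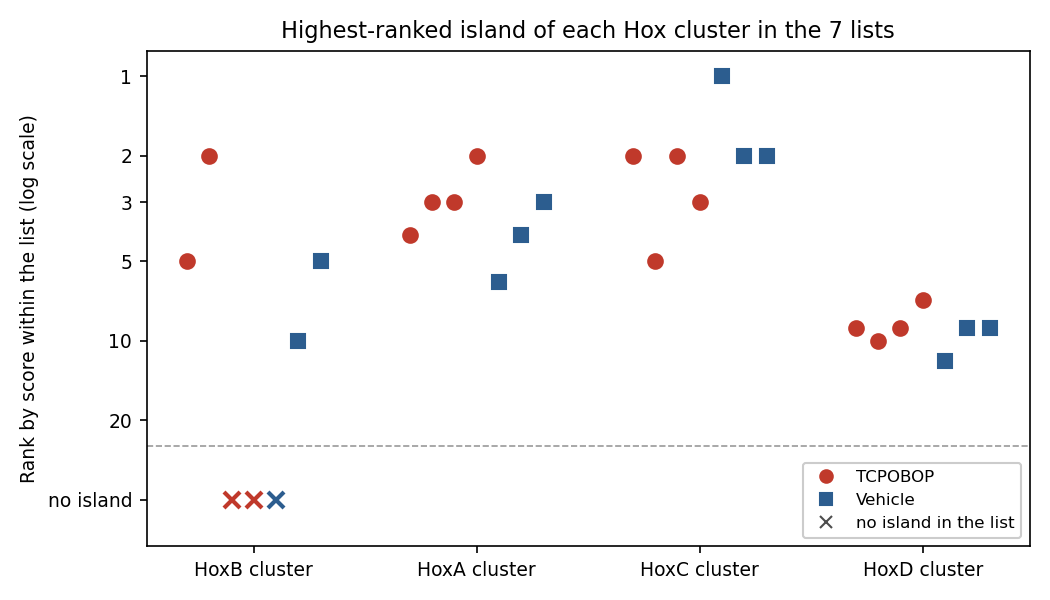
Rank by score, on a log scale with rank 1 at the top, of the highest-scored island of each Hox cluster in each list (circles, TCPOBOP; squares, vehicle; crosses, no island). HoxA, HoxC and HoxD ranked between 1 and 12 in all 7 lists, while HoxB ranked between 2 and 10 in 4 lists and had no island in 3.

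Cover of HoxA, HoxC and HoxD, which the choice of members did not use, was compared between the groups. Islands covered 95.3 ± 2.05% of the HoxA region with TCPOBOP (SD, n = 4) and 93.3 ± 1.42% with vehicle (SD, n = 3), a difference of 2.00 points (two-sided exact permutation p = 0.286, adjusted over 3 clusters 0.743). For HoxC the cover was 96.6 ± 1.25% with TCPOBOP and 97.1 ± 2.40% with vehicle (difference -0.545 points, exact permutation p = 0.743, adjusted 0.743), and for HoxD it was 91.6 ± 5.11% with TCPOBOP and 89.8 ± 1.90% with vehicle (difference 1.76 points, exact permutation p = 0.6, adjusted 0.743). None of the 3 differences passed the test. The smallest p that 4 against 3 livers can give is 0.0286. With only islands at or above the median score of their list, all 3 differences were below 0. They were -0.879 points for HoxA (exact permutation p = 0.486), -1.65 points for HoxC (exact permutation p = 0.229) and -5.85 points for HoxD (exact permutation p = 0.0571). None of these passed the test, their p-values were not adjusted over the 3 clusters, and the cause was not tested.

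Strong domains were otherwise almost never missing from a list. Islands of all 7 lists merged into 17394 regions of any strength, and 46.0% of these had no island in 3 or more lists. Of the 336 regions with an island in the top 1% by score of at least 1 list, 334 had an island in every list, and 0.595% had none in at least 1. HoxB was the only one with none in 3 or more lists (0.298%); since it was chosen for this, nothing further is read from that share. The other exception lay on chromosome 2 from 77808001 to 77835600, with a best rank of 0.202% of a list and no island in TCPOBOP replicates 2 and 4. Leaving out 1 liver at a time was chosen after the data were seen. The count of top 1% regions with no island in a list was then 1 without vehicle replicate 2, where only HoxB was left. It was 3 without TCPOBOP replicate 3, and 2 without any other liver. HoxB had no island in 2 or 3 of the lists that remained.

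Of the 52 regions with an island in the top 20 of any list, the 51 other than HoxB were present in all 7 lists. The weakest of these 51 stood at 10.0% of the list in which it ranked lowest, and the median of the lowest positions was 0.982%. This cut was chosen after the values were seen, and the chromosome 2 region, at 0.202%, falls outside it. HoxB was chosen for its missing islands, so nothing further is read from this count.

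**Figure D3:**
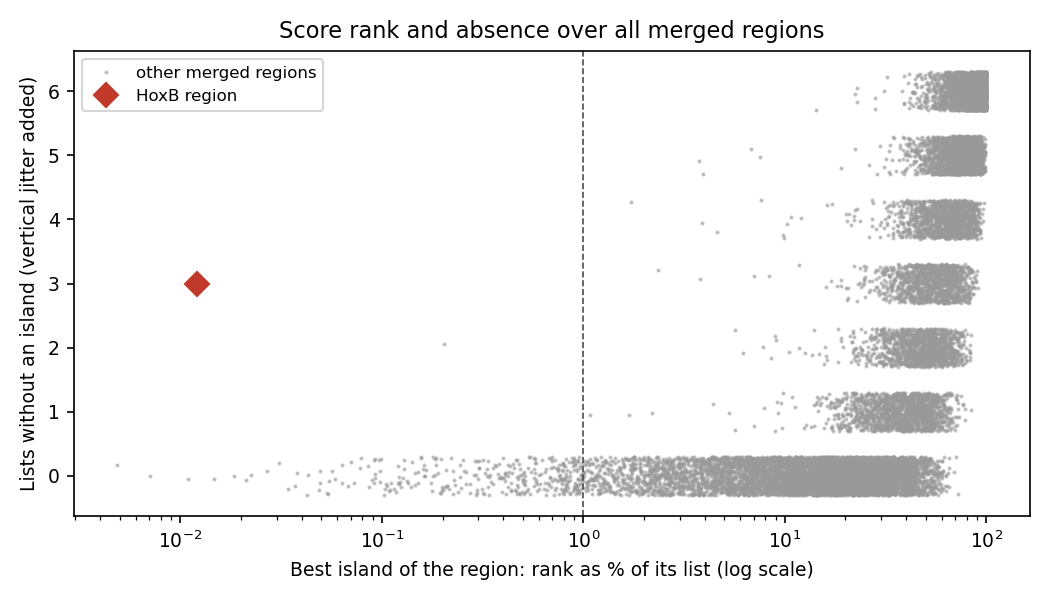
Each of the 17394 merged regions placed by the rank of its best island as a percent of that list, on a log scale, and by the number of lists without an island, with vertical jitter; the dashed line marks 1%. Absence begins to the right of the line for all but 2 regions, and the HoxB region stands alone at the left with a best rank of 0.0121% and 3 lists without an island.

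The islands on either side of HoxB had their inner edges at nearly the same place in all 7 lists, though they differed in width. The stretch without islands was 366 kb in TCPOBOP replicate 3 and 361.2 kb in TCPOBOP replicate 4, against 361.6 kb in vehicle replicate 1. The island to the left ended between 95890800 and 95895600 in all 7 lists, a spread of 4.80 kb. The island to the right began between 96256401 and 96257201, a spread of 0.800 kb, and began at 96257201 in 5 of them. Both inner edges thus varied little over lists with and without a HoxB island. The left neighbour was a 6 kb island at 96.5% of its list by score in TCPOBOP replicate 3, and was 77.2 to 100.8 kb wide and at 2.23 to 3.84% in the other 6 lists. That small island, from -217.3 to -211.3 kb of the window's centre, followed closely on another, from -289.3 to -220.1 kb. In TCPOBOP replicate 1 a single island ran from -288.9 to -211.7 kb, so the same stretch was marked in both lists and split in TCPOBOP replicate 3. The right neighbour was 123.2 and 124 kb wide in TCPOBOP replicates 3 and 4, against 34 kb, at 16.4% of its list, in vehicle replicate 1. There the same stretch was split: a further island ran from 192.7 to 278.3 kb of the centre. In TCPOBOP replicate 3 the right neighbour ran from 154.7 to 277.9 kb. Vehicle replicate 2, which had HoxB islands, was also split, with a right neighbour of 52.8 kb and a further island from 210.3 to 277.9 kb. Where it was listed, the distance to the left neighbour was 90.0 and 87.2 kb in TCPOBOP replicates 1 and 2, against 59.2 and 69.2 kb in vehicle replicates 2 and 3. The distance to the right neighbour was 8.80 kb in both TCPOBOP livers, against 10.4 and 3.20 kb in the vehicle livers.

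The empty stretch was among the longer ones on chromosome 11. It ranked 45 of 1142 stretches between islands in TCPOBOP replicate 3 and 38 of 1153 in TCPOBOP replicate 4, against 45 of 869 in vehicle replicate 1. Over the autosomes of all 7 lists there were 9745 stretches of 300 kb or more without an island, of which 7802 held an island of another list. In 4 of them that island was in the top 1% of its list, and 3 of these 4 were the HoxB stretches, which follows from how the window was chosen. The next-strongest island of another list inside such a stretch stood at 6.81% in TCPOBOP replicate 3 and at 5.67% in vehicle replicate 1. In TCPOBOP replicate 4 it was the chromosome 2 region at 0.202%.

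The surroundings of the cluster, which the choice of members did not use, differed between the groups by less than the spread between livers. In the 1 Mb on each side of the window, islands covered 53.1 ± 2.98% with TCPOBOP (SD, n = 4) and 51.2 ± 4.58% with vehicle (SD, n = 3), a difference of 1.90 points (two-sided exact permutation p = 0.543). The values were 53.2, 56.6, 49.3 and 53.2% in TCPOBOP replicates 1 to 4, against 46.2, 55.2 and 52.1% in vehicle replicates 1 to 3, and the groups overlapped. The left side had 52.7 ± 3.07% with TCPOBOP and 50.1 ± 5.12% with vehicle (difference 2.57 points, exact permutation p = 0.429), and the right side had 53.4 ± 3.10% with TCPOBOP and 52.2 ± 4.13% with vehicle (difference 1.22 points, exact permutation p = 0.657). Without vehicle replicate 1, the lowest of the 7 livers, the difference over both sides turned to -0.585 points.

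Every list held islands over the rest of chromosome 11. Only their summed length was measured, which cannot show whether another stretch of the size of HoxB is missing from a list. Islands outside the window spanned 40.2 ± 1.12 Mb with TCPOBOP (SD, n = 4) and 39.2 ± 0.208 Mb with vehicle (SD, n = 3), a difference of 1.05 Mb (two-sided exact permutation p = 0.229). TCPOBOP replicates 3 and 4, which had no HoxB island, had the highest values of the 7 livers, 41.4 and 40.8 Mb. Vehicle replicate 1, which also had none, had 39.2 Mb, between the other vehicle livers at 39.0 and 39.4 Mb. Why the 3 lists have no HoxB island was not tested.

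**Figure D4:**
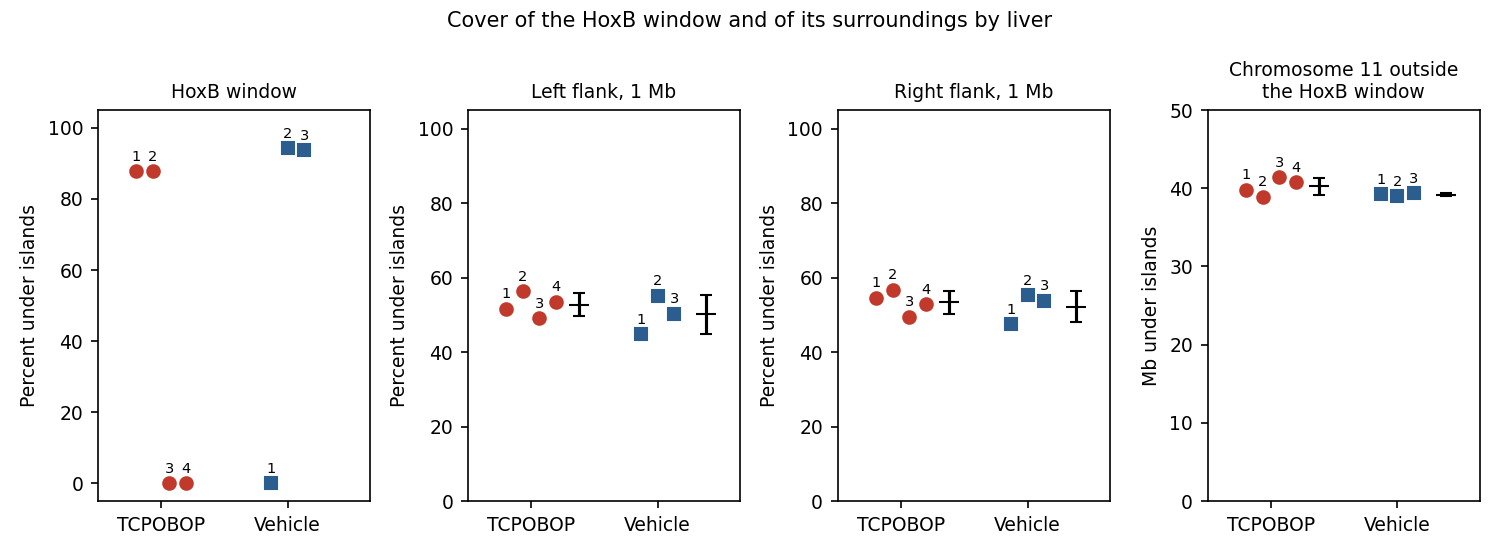
Percent of the HoxB window and of the 1 Mb on its left and right under islands, and Mb of chromosome 11 under islands outside the window, for TCPOBOP livers (circles) and vehicle livers (squares) numbered by replicate; bars on the surroundings are mean ± SD. The window stands at 0% in 3 livers and at 87.7 to 94.3% in the other 4, while the surroundings stay between 44.9 and 56.8% in all 7.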

How the data were processed

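Chromatin of 7 livers was immunoprecipitated for H3K27me3 and sequenced. Per the submitters' processing notes, Bowtie2 2.3.2, SICER 1.1 and mm9 were used. The deposited value is a score for each island, called by the authors in each liver without pooling. Window (400 bp), gap (2400 bp) and E-value (100) were read from the names of the lists. Input control, filters and duplicate handling were not given in the sources used here.

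The members and lists were chosen with earlier results of these data known. The checks of equal edges, of empty stretches and of regions in the top 20 were chosen after the values were seen. Overlapping or touching islands of the 7 lists were joined into merged regions. HoxA, HoxC and HoxD were taken as the merged regions on chromosomes 6, 15 and 2 that hold them in mm9, placed from general knowledge. Cover was compared by exact permutation, two-sided, with 35 splits, with Benjamini-Hochberg adjustment over the 3 other clusters. The code of the search for missing islands was checked on a real list from which islands had been removed at known places. Finding those places was fixed by that design, so it checks the code only. The named genes are the 10 members and up to 3 neighbours on each side. Sequences came from RefSeq tables of GRCm38.p6, with no coordinates converted. Alternatives were another score threshold, other flanks, other top shares and leaving out each liver. Python 3.11.15, NumPy 2.4.6 and pandas 2.3.3 were used.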

Additional observations from a re-analysis of the deposited data

Results flagged for a closer look

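Cover of the HoxA region was 98.4% in TCPOBOP replicate 2 and between 94.1 and 94.5% in the other 3 TCPOBOP livers, so that liver stood far from the rest of its group. It was the only such value among 8 measures of the TCPOBOP livers, and chance puts about 1 group in 20 there.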

How the results depend on the processing

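An island was listed over HoxB in 4 lists also when most of it had to lie inside the window or its score had to reach the median of its list, and in 3 to 4 when 1 liver was left out. The first 2 alternatives could not change the count. Every island lay inside the window, and the highest of each list ranked between 2 and 10. Leaving out a liver takes away only its own list, so that range was fixed too. Nothing is read from either. The count of 2 regions in the top 1% with no island in a list became 5 with the top 2%, and 1 to 3 when 1 liver was left out. Leaving out livers was chosen for these counts after the data were seen. Of 69 differences under alternatives 62 kept their direction and 7 reversed. With flanks of 500 kb the right-hand difference turned to -0.0833 points. With islands at or above the median score the HoxA difference was -0.879 and the HoxD difference -5.85 points (exact permutation p = 0.0571 for HoxD, not adjusted over the 3 clusters). The cause was not tested. Leaving out each liver gave -0.585 to 3.93 points for both flanks, -0.0400 to 5.08 for the left, -1.13 to 2.77 for the right, -1.85 to 0.510 for HoxC, 0.982 to 2.76 for HoxA, 0.231 to 3.76 for HoxD and 0.645 to 1.49 Mb for chromosome 11 outside the window.

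Livers of both groups share the replicate numbers 1 to 3. Deviations of other-numbered livers from their group means correlated at -0.124 to 0.0628 over the merged regions. Those of the 3 same-numbered pairs correlated at 0.0228, 0.218 and 0.0483. The main tests did not take the numbers to pair the livers, and whether they do was not tested. With a replicate block over these 3 pairs, the difference was 1.86 points for both flanks (exact sign-flip permutation p = 0.750, the smallest possible being 0.250), 2.29 for the left, 1.43 for the right, 2.41 for HoxA, -0.215 for HoxC, 3.76 for HoxD and 0.863 Mb for chromosome 11. No call changed. The files give no read numbers, so weak islands near the caller's threshold cannot be told from absent ones.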

Other observations

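Among regions with a best island in the top 2% of a list, 3 more had no island in at least 1 list. These lay on chromosome 1 from 63464001 to 63676000, missing in TCPOBOP replicate 3, on chromosome 12 from 113556401 to 113724400, missing in TCPOBOP replicate 2, and on chromosome 2 from 77842001 to 77850400, missing in TCPOBOP replicates 2, 3 and 4 and vehicle replicate 3. Their best ranks were 1.69%, 1.08% and 1.73% of a list, against 0.0121% for HoxB.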
